A study of Mus musculus with 24 samples.

Results

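The comparison described here set 2 mouse melanoma lines, B16-D-739 and B16-D-733, against each other to measure how far lines that came separately from the same dormant cells differed in RNA. Its members were chosen by title, 3 arrays titled B16-D-739 and 4 titled B16-D-733, which are 7 of the 24 samples in the series. The series measured RNA of mouse melanoma and leukemia cells on 1-colour Agilent arrays after growth in culture, and the study's methods place its dormant cells in models of minimal residual disease under immunotherapy. B16 melanoma cells that carry GFP were the parent of every melanoma line. The title B16-M stands for parental cells (3 samples) and B16-D for cells kept dormant in mice (4 samples, of which 3 were used). The lines B16-D-733, B16-D-735 (3 samples) and B16-D-739 belong to a later generation, which the study's methods describe as taken from a brain site. The labels do not say which number belongs to which of the brain-site lines, give no strain, sex or age of the mice, and do not say whether replicates were separate cultures. All lines were grown in the same serum-containing medium before RNA was taken, so the values describe cultured cells and not cells in the brain.

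Tumor dormancy is a state in which residual cancer cells persist for a long time without forming a growing tumor. Secreted ligands and their receptors, matrix proteins, and signals from the immune system are among the factors known to hold disseminated cells in dormancy or to wake them. When lines are grown out separately from 1 population, each can carry a different sample of the cells that were there, and each can also change in culture, which a bulk comparison of the lines cannot separate.

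B16-D-739 and B16-D-733 differed in few genes, and some of those differences were large. Of 22707 genes tested, 61 passed an adjusted p of 0.05 (0.269%), with 47 lower in B16-D-739 (0.207%) and 14 higher (0.0617%). Leaving out single arrays gave 4 to 27 higher and 35 to 38 lower. Among the genes lower in B16-D-739 were Gas6, a ligand of receptor tyrosine kinases, Clu, a secreted chaperone, Spp1, a matrix protein, and Sigirr, an inhibitory receptor. Ctsk, which encodes the matrix-degrading protease cathepsin K, was 8.76-fold higher in B16-D-739 (log2 difference 3.13, or 1.92 with normexp background correction). Pigment-cell genes did not pass the test, and the median absolute log2 difference over all genes tested was 0.102.

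All levels are log2 intensities relative to the 75th percentile of the same array, so that a level of 0 equals that percentile, and differences are B16-D-739 minus B16-D-733 in log2 units with their SE from the fit. Between 50.9% and 55.8% of spots were well above background on the 7 arrays, and the number of arrays limits the precision. The arrays came from 3 slides, called A, B and C here, and both lines were on each of them. B16-D-739 had 1 array per slide, and B16-D-733 had 1 on slide A, 1 on slide B and 2 on slide C. A date stood in the titles of 3 of the 4 B16-D-733 arrays and of 0 of the 3 B16-D-739 arrays. Title date and line cannot be told apart for those 3 arrays, so the undated B16-D-733 sample, replicate 0, is also compared alone. The p-values measure only the spread between samples. Because the RNA was bulk, fewer cells with a transcript and less of it per cell cannot be told apart.

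Array by array, distances between the lines overlapped distances between replicates of 1 line, and they depended on the replicate number in the title. The median absolute log2 difference over genes ranged from 0.146 to 0.347 in the 12 pairs made of 1 array from each line, with a median of 0.178. Within B16-D-739 the 3 pairs of arrays ranged from 0.166 to 0.320, and within B16-D-733 the 6 pairs ranged from 0.123 to 0.338. The ranges overlapped, and their upper parts came from the replicate 2 array of each line, both on slide A. Each of the 10 pairs with 1 of these arrays was at 0.281 or more, within a line and between the lines, whereas the 2 arrays differed from each other by 0.169. Without them the range was 0.146 to 0.182 in 6 pairs between the lines and 0.123 to 0.192 in 4 pairs within a line. Between the lines, the 4 pairs that shared a replicate number in the title were at 0.146 to 0.169. The 8 with different numbers were at 0.169 to 0.347, or at 0.169, 0.175 and 0.182 in the 3 pairs without replicate 2. The 4 pairs on the same slide were at 0.169 to 0.182. Within a line, only B16-D-733 replicates 1 and 3 shared a title number. Their titles also gave the same date and slide, and at 0.123 they lay closer than any pair between the lines. The labels do not say whether they are 2 cultures or 1 sample put on 2 arrays. They count as 2 of the 4 B16-D-733 samples throughout. The other pairs within a line had different numbers and were at 0.166 to 0.338. Averaging the arrays of each line brought the median absolute difference down to 0.102. On slides A, B and C alone it was 0.169, 0.175 and 0.159.

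**Figure D1:**
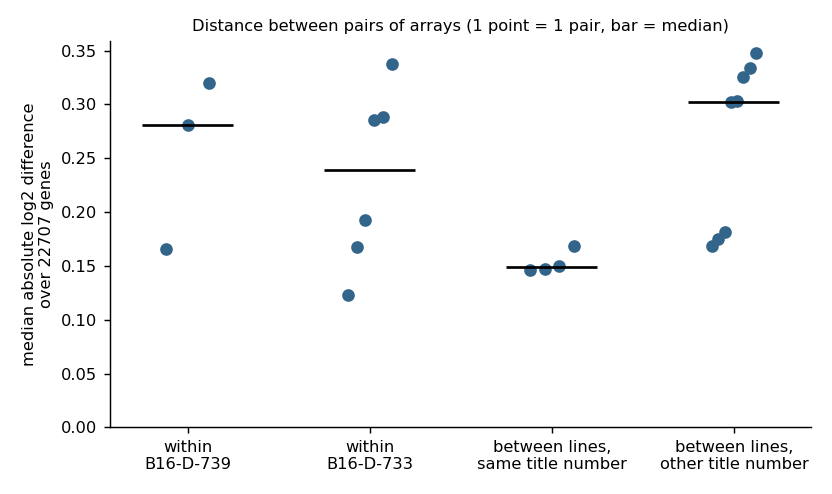
Median absolute log2 difference over all genes tested for each pair of the 7 arrays, grouped as pairs within B16-D-739, within B16-D-733, and between the lines with the same or another replicate number in the title. Each point is 1 pair and each bar a median, and pairs between the lines, from 0.146 to 0.347, overlap pairs within a line, from 0.123 to 0.338.

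Every 1 of the 61 genes kept its direction on each of the 3 slides, and 60 had B16-D-739 arrays that did not overlap the B16-D-733 arrays. Over all genes tested, 1308 had such separate arrays (5.76%). The arrays that gave the call also enter both counts over the 61, so these counts are a description. In 17 of the 61, 1 line had no array well above background, so that the fold is a lower bound, and in 6 more the lower line had only some. With each array of the lower line that was not well above background raised to that array's lowest level well above background, the difference exceeded 2-fold in 43 of the 61, of which 35 were lower and 8 higher in B16-D-739. It then exceeded 8-fold in 9. The number higher in B16-D-739 depended on single arrays. It was 8, 8 and 4 without B16-D-739 replicate 0, 1 or 2, and 27, 9 and 9 without B16-D-733 replicate 0, 1 or 2, while the number lower stayed between 35 and 38. At an unadjusted p under 0.05 there were 1320 genes. Large differences that missed the threshold were also common, since 130 of the 176 genes with a log2 difference beyond 1 in either direction did not pass. Of the 61, 13 had no gene symbol and are known by an identifier only.

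Among the 14 genes higher in B16-D-739, Ctsk had the largest difference of those named by rule. Outside the rule, and chosen after their values were seen, Gm28321 differed by 3.03 ± 0.32 with 2 of 4 B16-D-733 arrays well above background, and 2 transcripts without a symbol, on 0 of 4, were at least 5.99-fold and 4.35-fold higher. Ctsk levels were -0.81, -1.07 and -0.96 in B16-D-739 replicates 0, 1 and 2, against -3.95, -4.52, -4.01 and -3.98 in B16-D-733 replicates 0 to 3. The 3 B16-D-739 arrays stood together far above all B16-D-733 arrays, and within B16-D-733 replicate 1 lay lowest. The difference was 3.13 ± 0.22 (SE; adjusted p = 4.53e-05), with 3.05 on slide A, 2.88 on slide B, 3.43 on slide C and 3.00 against the undated B16-D-733 sample. With normexp correction it was 1.92. Mean Ctsk levels elsewhere were -2.52 ± 0.26 (SD, n = 3) in B16-D-735, -3.25 ± 0.56 (SD, n = 3) in B16-D and -3.74 ± 0.18 (SD, n = 3) in B16-M, so that B16-D-739 had the highest mean of the 5 lines.

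Mocos, whose product puts sulfur on the molybdenum cofactor of xanthine dehydrogenase and aldehyde oxidase, was at -0.80, -1.15 and -0.80 in B16-D-739 and at -2.35, -2.998, -2.71 and -2.84 in B16-D-733. No array of either line reached into the range of the other. The difference was 1.76 ± 0.24 (adjusted p = 0.00784), and the slides gave 1.91, 1.20 and 2.12. It did not pass without B16-D-739 replicate 0 (adjusted p = 0.0796) or replicate 2 (adjusted p = 0.0548). Levels of Hoxd13, a homeobox gene of limb and trunk patterning, were -1.77, -1.95 and -2.34 in B16-D-739 against -2.77, -3.16, -3.78 and -3.31 in B16-D-733. The arrays were apart again, with replicate 2 the lowest of each line. The Hoxd13 difference was 1.26 ± 0.17 (adjusted p = 0.00898), with 1.45, 0.82 and 1.47 on the slides, and it did not pass without B16-D-739 replicate 0 (adjusted p = 0.0949).

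The other genes higher in B16-D-739 that the rule names had smaller differences. Aass, which starts lysine breakdown, differed by 1.05 ± 0.12 (adjusted p = 0.00244), and by 0.33 (adjusted p = 1) when its 2 probes were averaged. Khk, the kinase that admits fructose to metabolism, differed by 0.62 ± 0.10 (adjusted p = 0.0287). Tlr2, an innate receptor for bacterial lipoproteins, differed by 0.76 ± 0.13 (adjusted p = 0.0381). Arrays of the lines were apart for each of these. Abi3, a member of the Abl-interactor family of actin regulators, differed by 1.03 ± 0.17 (adjusted p = 0.0277). Reep6, which shapes the endoplasmic reticulum, differed by 0.68 ± 0.11 (adjusted p = 0.0247). The zinc finger gene Zfp979 differed by 0.74 ± 0.10 (adjusted p = 0.00617). However, its 2 probes went opposite ways, at -0.38 and 0.75 as differences of line means, and their average differed by 0.18 (adjusted p = 1). Leaving out 1 array ended the call of Zfp979 once (B16-D-739 replicate 2, adjusted p = 0.066).

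Leaving out most single arrays ended the calls of Abi3, Tlr2, Reep6 and Khk. Abi3 kept its call only without B16-D-739 replicate 0, and the adjusted p ran from 0.0545 to 0.222 without any other array. Tlr2 kept it only without B16-D-733 replicate 0, with values from 0.113 to 0.277 otherwise. Reep6 kept it only without B16-D-733 replicate 2, with values from 0.0702 to 0.179 otherwise. Khk kept it without B16-D-739 replicate 0 and without B16-D-733 replicate 3, with values from 0.0878 to 0.241 otherwise. In all 4 genes the direction was the same throughout.

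The rule names 15 genes lower in B16-D-739 by size, and Tslp as a list member. Gas6, the vitamin K-dependent ligand of the receptors Axl, Tyro3 and Mertk, was at -5.27, -5.25 and -6.92 in B16-D-739 and at -0.54, -0.84, -0.70 and -0.68 in B16-D-733. The B16-D-733 arrays lay close together and high, whereas no B16-D-739 array was well above background. For such genes the fold is given as a bound, made by setting each array of the dim line to its own lowest level well above background where the gene lay under it, on the scale of the deposited signal. The bound holds for that scale only, since with normexp correction the differences of these named genes lay under it, as given below. On the deposited scale Gas6 was at least 18.6-fold lower in B16-D-739 (fitted difference -5.06 ± 0.37, adjusted p = 4.93e-05). With normexp correction Gas6 differed by -2.54. On each of the 3 slides, and against the undated B16-D-733 sample, B16-D-739 was the lower. Mean Gas6 was -0.65 ± 0.21 (SD, n = 3) in B16-D-735, -4.85 ± 0.59 (SD, n = 3) in B16-D and -5.41 ± 0.69 (SD, n = 3) in B16-M. High Gas6 was therefore found in B16-D-733 and B16-D-735, and low Gas6 in B16-D-739, B16-D and B16-M.

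Clu, which encodes the secreted chaperone clusterin, was at -4.30, -3.79 and -3.54 in B16-D-739 and at 0.53, 0.72, 0.85 and 0.82 in B16-D-733. All B16-D-733 arrays were above the 75th percentile of their array, and all B16-D-739 arrays were far under it. Clu was 24.8-fold higher in B16-D-733 (difference -4.63 ± 0.36, adjusted p = 7.75e-05), with -4.40, -4.32 and -5.08 on the slides. With normexp correction Clu differed by -3.15. Its means in B16-D-735, B16-D and B16-M were -4.01 ± 0.80, -2.76 ± 0.96 and -4.50 ± 0.64 (SD, n = 3 each), so that B16-D-733 stood apart as the high line. Fstl3, a secreted binder of activins, was at -5.29, -4.73 and -5.15 in B16-D-739, where 1 of 3 arrays was well above background, and at -0.71, -1.65, -1.40 and -1.53 in B16-D-733. The groups were apart, with replicate 0 the highest B16-D-733 array. The fitted difference was -3.82 ± 0.35 (adjusted p = 0.000304), its size resting on 2 B16-D-739 arrays that were not well above background, and its means in B16-D-735, B16-D and B16-M were -4.48, -4.60 and -4.47.

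Spp1, the gene of the matrix phosphoprotein osteopontin, was at -3.36, -3.39 and -3.53 in B16-D-739 and at -1.57, -1.24, -1.04 and -1.17 in B16-D-733. The lines did not overlap, and replicate 0 was the lowest of the B16-D-733 arrays. The difference was -2.19 ± 0.25 (adjusted p = 0.00195), with -2.49, -1.82 and -2.16 on the slides, and without the slide A arrays of both lines it was -2.06 and did not pass (adjusted p = 0.0669). Spp1 was also high in B16-D-735, at -1.13 ± 0.47 (SD, n = 3), and lower in B16-D and B16-M, at -2.84 and -2.68. Tslp, an epithelial cytokine that acts on dendritic cells, was at -5.71, -4.98 and -5.30 in B16-D-739, well above background on 0 of 3 arrays, and at -3.36, -3.70, -3.04 and -3.43 in B16-D-733. Every B16-D-733 array lay above every B16-D-739 array. The difference was at least 2.86-fold (fitted difference -1.99 ± 0.22, adjusted p = 0.00127).

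Sigirr, an inhibitory member of the interleukin-1 and Toll-like receptor family, was at -1.27, -1.62 and -1.27 in B16-D-739 and at 0.78, 0.93, 0.97 and 0.89 in B16-D-733. The 4 B16-D-733 arrays were nearly level and the lines were well apart. The difference was -2.27 ± 0.19 (adjusted p = 0.000153), and the slides gave -2.24, -2.40 and -2.19. Means in B16-D-735, B16-D and B16-M were -2.66 ± 0.19, -1.82 ± 0.32 and -3.50 ± 0.41 (SD, n = 3 each), all under B16-D-733. Tmem88, a membrane protein that restrains Wnt signalling through Dishevelled, differed by -2.03 ± 0.15 (adjusted p = 5.94e-05). Its mean in B16-D, -1.96 ± 0.02 (SD, n = 3), lay between B16-D-739 at -3.55 and B16-D-733 at -1.51. Lpar4, a receptor for lysophosphatidic acid, was well above background on 0 of 3 B16-D-739 arrays and was at least 2.79-fold lower there (fitted difference -3.32 ± 0.30, adjusted p = 0.000288).

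Mbp, the gene of myelin basic protein, was at -2.05, -1.28 and -1.01 in B16-D-739 and at 2.05, 2.13, 2.55 and 2.25 in B16-D-733. B16-D-733 was high on every array, and B16-D-739 was low on every array and more spread. Its fitted difference was -3.73 ± 0.34 (adjusted p = 0.000294). As differences of line means, without the slide term, its 3 probes gave -3.69 to -3.34. The means of B16-D-735, B16-D and B16-M, at -0.35 ± 0.77, 0.13 ± 0.44 and 0.10 ± 0.57 (SD, n = 3 each), fell between the lines compared. Tvp23a was at -7.07, -7.19 and -6.90 in B16-D-739, well above background on 0 of 3 arrays, and at -1.57, -1.84, -2.39 and -2.13 in B16-D-733. The arrays were far apart. On the scale of the deposited signal, Tvp23a was at least 7.61-fold lower in B16-D-739 (fitted difference -5.06 ± 0.27, adjusted p = 8.29e-06). Its difference was -1.66 with normexp correction and -2.81 for the average of its 2 probes, both under the bound. Other lines all had a Tvp23a signal, with means of -1.43 in B16-D-735, -3.49 in B16-D and -1.81 in B16-M, and B16-D-739 was the 1 line not well above background.

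Rangrf, which encodes a binding partner of the nuclear transport protein Ran, was at -3.01, -3.61 and -5.32 in B16-D-739, well above background on 2 of 3 arrays, and at -0.93, -0.60, -0.61 and -0.67 in B16-D-733. B16-D-739 replicate 2 was the lowest, and the lines were apart. The difference was -3.23 ± 0.38 (adjusted p = 0.00243). It became -2.55 without B16-D-739 replicate 2, -3.88 without replicate 0 and -3.97 without replicate 1. The 3 probes of the gene gave differences of line means from -5.26 to -3.28. B16-D-735, B16-D and B16-M had Rangrf means of -0.09 ± 0.15, -0.12 ± 0.09 and -0.38 ± 0.15 (SD, n = 3 each), so that B16-D-739 was again the 1 low line.

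The remaining genes named by rule were Flywch2, Sult6b1, Slc4a5, Fitm1 and Spint1. Flywch2 differed by -2.29 ± 0.16 (adjusted p = 4.53e-05). Sult6b1, a sulfotransferase, was at least 2.01-fold lower in B16-D-739 (fitted difference -3.11 ± 0.31, adjusted p = 0.00064). Slc4a5, a sodium bicarbonate cotransporter, was at least 1.64-fold lower (fitted difference -2.33 ± 0.28, adjusted p = 0.00255), and its fitted difference was -2.96 without B16-D-739 replicate 2. Sult6b1 and Slc4a5 did not pass with normexp correction or with all 17 melanoma arrays in the fit, as given below. Both were well above background on 0 of 3 B16-D-739 arrays. Fitm1, a protein of lipid droplet formation, was also on 0 of 3 and at least 2.14-fold lower (fitted difference -2.41 ± 0.37, adjusted p = 0.0204). Fitm1 kept its call only without B16-D-739 replicate 2, and the adjusted p ran from 0.0582 to 0.127 without any other array. Spint1, an inhibitor of the protease that activates hepatocyte growth factor, differed by -3.02 ± 0.51 (adjusted p = 0.038), with 2 of 3 B16-D-739 arrays well above background. Without any 1 of the 7 arrays Spint1 did not pass, with adjusted p from 0.101 to 0.282.

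Sizes depended on the signal used and its background correction, which were changed together. Some calls depended on these and on the arrays in the fit. Under normexp correction of the median signal, with a constant of 50 added, 24 of the 25 named genes that passed had a smaller difference and 20 passed. The separate parts of the signal, the correction and the constant were not tested. Differences of the genes given a bound then lay under that bound. Gas6 differed by -2.54, Tvp23a by -1.66, Lpar4 by -0.82 and Tslp by -0.59, and these passed. Sult6b1 differed by -0.55 (adjusted p = 0.0568), Slc4a5 by -0.48 (adjusted p = 0.174) and Fitm1 by -0.40 (adjusted p = 0.494), and these did not pass. Ctsk was at 1.92, Mocos at 1.29, Hoxd13 at 0.72, Clu at -3.15, Fstl3 at -1.92, Rangrf at -2.27, Spint1 at -1.75, Flywch2 at -1.11, Spp1 at -1.39 and Tmem88 at -1.19, which all passed, and Tlr2 and Zfp979 did not (adjusted p = 0.46 and 0.057). The average of the 2 Tvp23a probes differed by -2.81, also under the bound.

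With all 17 melanoma arrays in the fit, B16-D replicate 2 included, 6 calls ended while the differences stayed close to those above. These were Fstl3 at -3.87 (adjusted p = 0.142), Lpar4 at -3.39 (adjusted p = 0.62), Sult6b1 at -3.15 (adjusted p = 0.204), Fitm1 at -2.43 (adjusted p = 0.0707), Slc4a5 at -2.38 (adjusted p = 0.59) and Tlr2 at 0.73 (adjusted p = 1). With the 7 arrays of the lines alone Mocos was at 1.78 (adjusted p = 0.0754), Hoxd13 at 1.27 (adjusted p = 0.102), Rangrf at -3.17 (adjusted p = 0.165) and Fitm1 at -2.48 (adjusted p = 0.115). In that fit Aass, Abi3, Tlr2, Zfp979, Reep6 and Khk did not pass either, and their differences also stayed close.

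**Figure D2:**
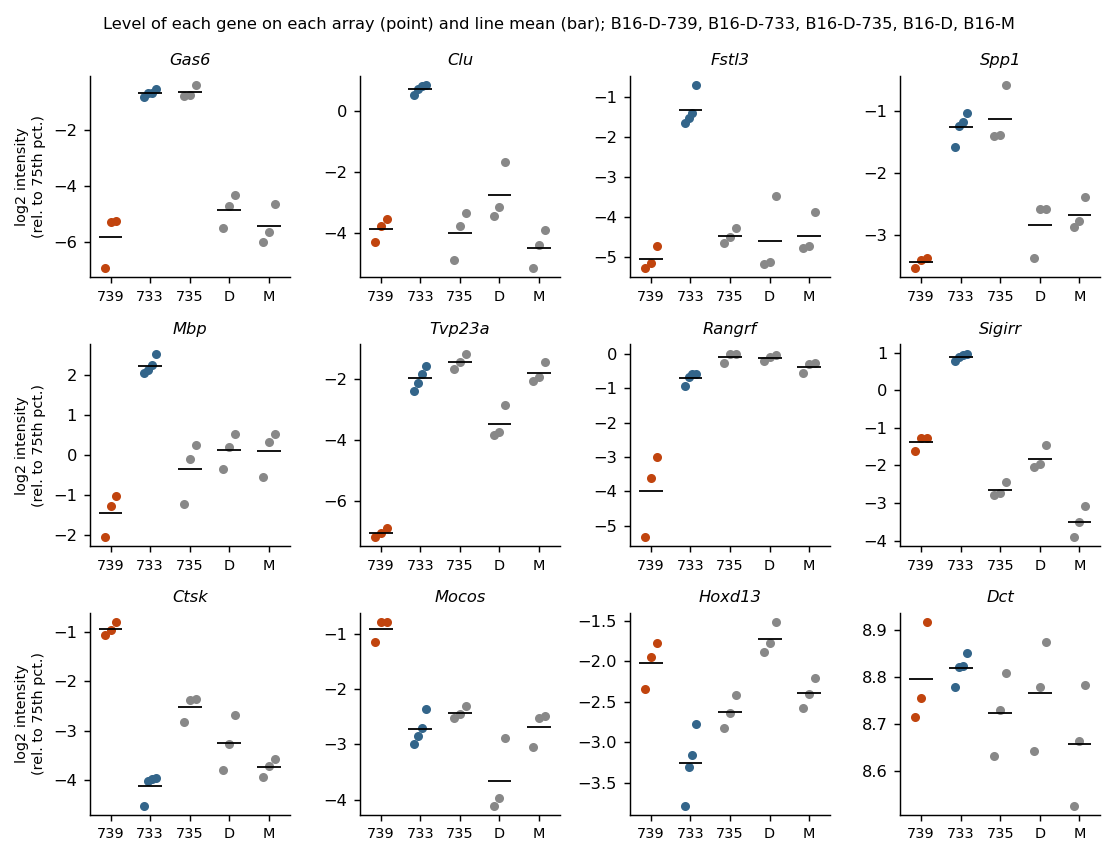
Log2 level of 12 genes relative to the 75th percentile of the array in each sample (points) with line means (bars) for B16-D-739, B16-D-733, B16-D-735, B16-D and B16-M, each gene on its own vertical scale. Gas6 is high in B16-D-733 and B16-D-735 and low in B16-D-739, whereas Clu is high in B16-D-733 and Ctsk in B16-D-739.

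Set beside the B16-D cells, the genes lower in B16-D-739 mostly had a B16-D level nearer to B16-D-739. The B16-D mean was nearer to B16-D-739 in 32 of those 47 genes and nearer to B16-D-733 in 15. Of the 14 genes higher in B16-D-739, it was nearer to B16-D-739 in 4 and nearer to B16-D-733 in 10. Gas6, Clu and Fstl3 had B16-D levels near B16-D-739, and Ctsk and Mocos had B16-D levels nearer B16-D-733. In both directions the B16-D mean lay more often nearer to the lower of the 2 lines. However, 17 of the 61 called genes had no array well above background in the lower line. In such genes a B16-D level near background is nearer to the lower line by construction. The share over all genes tested was not counted, so no general pattern is drawn. The B16-D-739 and B16-D-733 arrays enter these counts as well as the call, so the counts are a description.

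Well above background on every array of 1 line and on no array of the other were 64 genes, 13 in B16-D-739 and 51 in B16-D-733. As background, 19904 genes were well above background on every B16-D-739 array, 20094 on every B16-D-733 array, and 19397 on every array of both. Of the 64, 2 of the 13 and 14 of the 51 also passed the test. Most of the 64 were close to the background level, since the bound on the difference exceeded 2-fold for 5 and 18 of them and 4-fold for 2 and 4. Gas6 and Tvp23a were among the 4. Counts of such genes depended on how many arrays had to be dim, and came to 104 to 115 without B16-D-739 replicate 0, 1 or 2, and to 97 and 119 without B16-D-733 replicate 0 or 2.

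Pigment-cell genes were high in both lines. All 9 melanoma markers were well above background on all 7 arrays, and 0 of the 9 passed the limma test, with 0 at an unadjusted p under 0.05. Dct, an enzyme of melanin synthesis whose probe was the brightest of the 9, was at 8.92, 8.71 and 8.75 in B16-D-739 and at 8.85, 8.82, 8.78 and 8.82 in B16-D-733. Those ranges overlapped. The differences of the 9 ran from -0.23 ± 0.21 in Gpr143, a melanosomal receptor, to 0.11 ± 0.09 in Sox10, a neural crest transcription factor, with 8 of the 9 under 0. Mitf, the regulator of the pigment lineage, differed by -0.07 (95% interval -0.41 to 0.27). Summed on the linear scale, the markers came to 1589 ± 76.2 (SD, n = 3) times the 75th percentile in B16-D-739 and 1609 ± 63.7 (SD, n = 4) in B16-D-733.

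Across 27 pathway lists, 466 different genes were tested and 4 passed (0.858%), beside 0.269% of all genes tested. Gas6 was the 1 of 18 tested dormancy regulators that passed, and the list's median difference was -0.06. Its receptors differed by 0.50 (Axl, with 1.25, -0.55 and 0.68 on the slides) and by -0.01 (Tyro3), which did not pass, and Mertk was too dim to be tested. Spp1 was the 1 of 20 tested genes of extracellular matrix and basement membrane, with a list median of -0.06, or 0.0043 with normexp correction. Ctsk was the 1 of 18 matrix proteases and inhibitors, with a list median of 0.05, and Tslp the 1 of 10 cytokines and chemokines, with a list median of 0.08. The median over all genes tested was -0.005, and on slides A, B and C the medians were -0.10, -0.15 and -0.07 for the dormancy regulators and 0.12, -0.21 and 0.24 for the proteases. They were -0.07, -0.22 and 0.10 for the matrix list, and 0.23, -0.10 and 0.08 for the cytokines and chemokines.

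The other 23 lists had 0 genes past the limma threshold, and the numbers at an unadjusted p under 0.05 ranged from 0 to 6 per list. Cell cycle and DNA replication genes, 25 tested, had a median of 0.03 with 0 at an unadjusted p under 0.05. Pigment synthesis and melanosome genes, 21 tested, had 16 under 0 and a median of -0.01, which was -0.14 without B16-D-739 replicate 0 and -0.25 with the title date as a covariate. The list of the neural crest and undifferentiated state, 13 tested, had 11 under 0 and a median of -0.14, with -0.16, -0.14 and -0.05 on the slides and -0.01 with normexp correction. In cholesterol and fatty acid synthesis 19 of 25 tested were under 0, with a median of -0.10, or 0.0047 against the undated B16-D-733 sample. List medians reached 0.12 at the upper end, in glutathione transferases and antioxidants, where the slides gave 0.14, -0.10 and 0.16. In that list Nqo1, a quinone reductase chosen after its values were seen, was at -6.04, -6.97 and -6.93 in B16-D-739, well above background on 0 of 3 arrays, and at -1.64, -3.73, -3.69 and -3.62 in B16-D-733. B16-D-733 replicate 0 stood above its replicates, and all B16-D-739 arrays were lower. The Nqo1 bound was at least 3.35-fold and the adjusted p 0.0869, and the fitted difference of -3.52 became -2.80 without that replicate (adjusted p = 0.167) and -0.93 with normexp correction (adjusted p = 0.487). Nqo1 passed under 5 alternative settings, among them the title number in place of the slide (adjusted p = 0.0133) and beside it (adjusted p = 0.000638).

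Interferon response genes had the lowest list median, -0.29 over 21 genes tested, against -0.005 over all genes. By sign 17 of the 21 were under 0, beside 51.4% of all genes tested, 16 of 21 in the pigment list and 19 of 25 in cholesterol and fatty acid synthesis. The limma test passed 0, and 6 had an unadjusted p under 0.05, beside 5.81% of all genes tested. The slides gave medians of -0.16, -0.06 and -0.57, and against the undated B16-D-733 sample the median was -0.24. The size therefore differed between slides while the sign was shared. Without B16-D-739 replicate 0 the median was -0.16, and under the other scalings it was -0.27 (quantile) and -0.19 (normexp). Irf7, a transcription factor of the interferon response chosen after its values were seen, was at -2.31, -2.40 and -2.47 in B16-D-739 and at -1.02, -1.44, -1.16 and -1.27 in B16-D-733. The lines did not overlap. Its difference of -1.20 ± 0.21 missed the threshold (adjusted p = 0.053), although it passed under 7 of the alternative settings, among them the title number in place of the slide (adjusted p = 0.0154) and beside it (adjusted p = 0.0486). Rtp4 and Usp18, interferon-induced genes also chosen after their values were seen, differed by -1.24 ± 0.27 and -1.25 ± 0.28 (adjusted p = 0.155 each), and each passed under 1 alternative setting. Isg15 of the same list differed by -0.19.

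**Figure D3:**
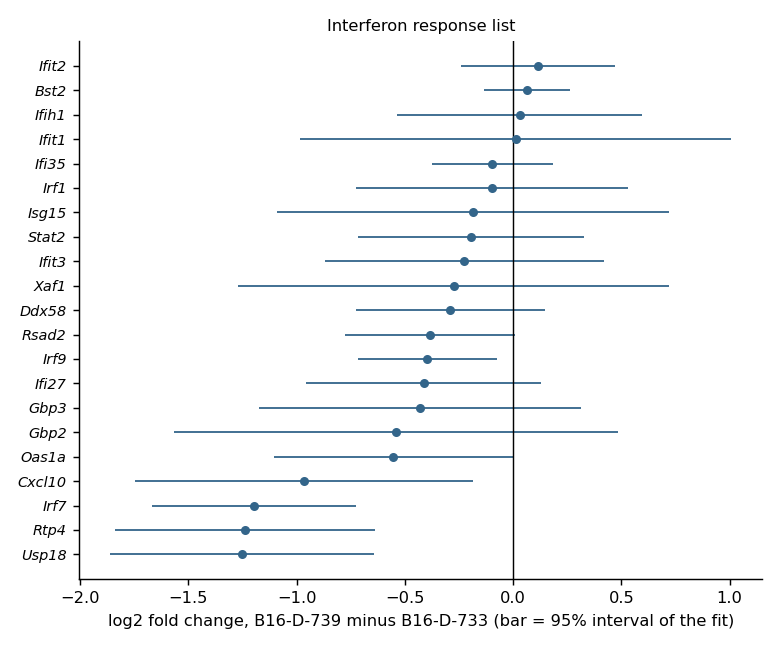
Difference between B16-D-739 and B16-D-733, in log2 units, for each of the 21 tested genes of the interferon response list, with the 95% interval of the fit as a bar and a vertical line at 0. Of the 21 genes, 17 lie under 0 and 0 passed the test.

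Genes of the MHC and antigen presentation, which interferon also controls, had a list median of -0.01 over 17 genes tested, or 0.0029 with quantile scaling, and 0 passed with 2 at an unadjusted p under 0.05. H2-K1, a class I heavy chain chosen after its values were seen, was at 2.18, 2.09 and 1.98 in B16-D-739 and at 1.68, 1.49, 1.18 and 1.34 in B16-D-733. B16-D-739 was higher on all arrays. The difference was 0.68 ± 0.13 and missed the threshold (adjusted p = 0.0615), although it passed under 3 of the alternative settings. B2m, the shared light chain, differed by -0.10, and H2-D1 by -0.02.

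Markers of other cell types were described by their summed levels, relative to the 75th percentile on the linear scale. In the list of astrocytes and oligodendrocytes, 8 of 12 genes were tested, Mbp alone passed, and Slc1a2, Slc1a3, Olig1 and Olig2 were well above background on none of the 7 arrays. Summed levels of that list were 12.9 ± 1.1 (SD, n = 3) in B16-D-739 and 13.9 ± 2.0 (SD, n = 4) in B16-D-733, with the brightest probe that of Aldh1l1. For macrophages and microglia the sums were 7.89 ± 1.61 and 7.98 ± 1.61, and 7 of 14 genes, Ptprc and Aif1 among them, were well above background on no array. Fibroblast and pericyte sums were 5.07, 5.71 and 5.99 in B16-D-739 and 6.03, 6.48, 7.58 and 6.99 in B16-D-733, with 0 of 5 tested genes past the threshold, Pdpn the brightest probe, and 4 of 12, Col3a1 and Dcn among them, on no array well above background. B16-D-739 was lower on every array, by a small gap. Endothelial sums were 11.93, 12.35 and 13.29 in B16-D-739 and 11.51, 8.17, 10.28 and 9.36 in B16-D-733, where 0 of 3 tested genes passed, Egfl7 was the brightest probe, and 9 of 12, Cdh5 and Kdr among them, were on no array well above background. These arrays did not overlap either, with B16-D-739 higher, and the part of both lists in other differences was not tested. Lymphocyte sums were 2.97 ± 0.94 and 2.77 ± 0.77, neuron sums 9.16 ± 0.38 and 8.99 ± 0.65, and keratinocyte sums 8.75 ± 1.09 and 8.95 ± 0.90, with 0 genes of these 3 lists past the threshold.

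By position, the genes that passed lay on most chromosomes. A position in the GRCm38.p6 gene table was found for 13605 genes tested and 48 of the 61. Chromosome medians of the difference ran from -0.02 to 0.02, no chromosome held more than 5 of the 48, and chromosomes 15 and 19 held 0. The share of genes tested that passed reached 0.901% on chromosome 18 and 0.759% on chromosome 10. Windows of 50 neighbouring genes tested had medians from -0.10 to 0.12 and held at most 3 genes that passed, on chromosome 10. Fstl3 and Arhgap45 on chromosome 10, and Mageh1 and Cnksr2 on chromosome X, were the nearest pairs of genes that passed, 12 genes tested apart. All of these except Fstl3 were chosen after their values were seen.

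Against the other lines of the series, the pair B16-D-739 and B16-D-733 had the fewest genes past the threshold of the 7 pairs fitted. B16-D-739 differed from B16-D-735 in 2943 genes (13%), and B16-D-733 differed from it in 3496 (15.4%). From the B16-D cells, B16-D-739 differed in 71 genes (0.313%) and B16-D-733 in 103 (0.454%). From the parental B16-M cells the counts were 1502 (6.61%) and 2288 (10.1%). Median absolute differences were 0.213 and 0.206 from B16-D-735, 0.121 and 0.108 from B16-D, and 0.189 and 0.191 from B16-M, beside 0.102 between the lines compared. These pairs share arrays, and the difference between the counts was not tested. Probes and genes were in each case those chosen on the 7 arrays of B16-D-739 and B16-D-733. Genes dim on most of those arrays were therefore not tested in any pair. Titles of B16-D-735 and B16-M held no date, and the part of the date in these counts was not tested.

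With the arrays whose titles carry no date, where B16-D-733 has 1 sample that is assumed to vary like the others, 4 genes passed, and 45 of 45 called genes with a value kept their direction. The undated B16-D-733 sample also entered the call, and 60 of the 61 had arrays of the lines apart. The kept direction is therefore a description and cannot test the date. The other called genes were too dim to be tested with the undated arrays. With the date as a covariate 156 genes passed, 53 of them among the 61, and the part of the date in these counts was not tested.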

How the data were processed

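The authors extracted total RNA from cultured cells, labelled it with Cy3 and read 1-colour arrays with Agilent Feature Extraction 10.7.3.1, and per the file headers the deposited processed signal is a background-subtracted intensity on the linear scale. Each array had 62976 spots, of which 3671 were controls and were left out. The log2 processed signal was averaged over the spots of a probe, spots marked as outliers were left out (741 on the 7 arrays), and the array's 75th percentile was subtracted. Array identifiers were matched to symbols of the RefSeq gene table. The brightest probe per symbol over the 7 arrays was kept, or per identifier where none matched. Genes well above background on at least 3 of those 7 arrays were tested.

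Differences came from limma 3.58.1 (R 4.3.3) over 16 melanoma arrays with the line and the slide as terms, 9 residual and 2.11 prior degrees of freedom, and Benjamini-Hochberg adjusted p under 0.05 as the threshold. B16-D replicate 2 was left out of the fit because 90.3% of its spots were well above background. The leukemia arrays were not used. Tables and figures were made with Python 3.11.15, numpy 2.4.6, pandas 2.3.3 and scipy 1.17.1.

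Whether title numbers pair samples was checked on residuals from the line means. Between the lines, residuals correlated at 0.63 for number 0, and at 0.54 and 0.48 for number 1, which the titles of B16-D-733 replicates 1 and 3 both carry. For number 2 the value was 0.85, in a pair that also shares slide A. Pairs with other numbers were at 0.17, 0.38 and 0.37 on the same slide. With 1 array of replicate 2 they were at -0.72 to -0.54. A fit with the number in place of the slide was therefore run, where 86 genes passed, and a fit with both, where 83 passed and Tlr2 was the 1 named gene to lose its call.

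Up to 15 genes each way are named by rule, those with the largest differences past the threshold (9 higher and 15 lower). Arrays of the lines had to be apart, and the probe well above background on every array of 1 line. Clones, accessions and symbols made of Gm and a number were passed over. Any list gene past the threshold and 9 melanoma markers are also named by this rule. Names marked as chosen after their values were seen fall outside it, and so do list genes given as examples. The members, the 27 pathway lists and the lists of cell markers were chosen with earlier results of these data known. A list is given by its counts and median, and no test of lists was run. A promoter search was planned for named genes that share a list, and no pair did. The alternatives comprised other scalings, filters, probe summaries, sets of arrays and blocks, the date in the title, and leaving out each of the 7 arrays. Normexp background correction was run on the median signal because the files hold no mean signal.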

Additional observations from a re-analysis of the deposited data

Results flagged for a closer look

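Of 51 sets of 4 B16-D-733 values checked, 7 had 1 sample far from the other 3, where the gap to the nearest sample, as a ratio to the whole range, exceeded Dixon's 95% critical value. Chance flags about 1 in 20 groups, a rate that does not apply to genes chosen after their values were seen, which gave 5 of the 7. The other 36 sets gave 2. For Ctsk the ratio was 0.894, with replicate 1 at -4.52 under the others at -4.01 to -3.95. For Reep6 it was 0.857, with replicate 2 at 0.08 above the others at -0.32 to -0.26. For Usp18, chosen after its values were seen like the genes that follow, it was 0.849, with replicate 2 at -3.65 and the others at -3.12 to -3.03. For Plxna4, an axon guidance receptor, it was 0.956, with replicate 2 at -1.60 and the others at -1.36 to -1.35, while the B16-D-739 arrays were at -2.95, -3.27 and -4.21 (difference -2.03, adjusted p = 0.0039).

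For Nqo1 the ratio was 0.947, with replicate 0 at -1.64 and the others at -3.73 to -3.62. For Rcc1l it was 0.984, with replicate 0 at 10.16 and the others at -1.61 to -1.43, and B16-D-739 was at -1.33, -1.84 and -1.37. The fitted Rcc1l difference was -3.25 (adjusted p = 0.99), and it was -0.01 without replicate 0. For Axl it was 0.857, with replicate 0 at 0.29 and the others at -1.35 to -1.12, and B16-D-739 was at -0.63, -0.25 and 0.13 in between. In Nqo1, Rcc1l and Axl the sample that stood apart was the B16-D-733 sample with no date in its title, and the part of the date was not tested.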

How the results depend on the processing

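Of 23 alternatives, 21 planned and 2 chosen after seeing the data, 18 gave a count of genes differing between B16-D-739 and B16-D-733 within 1.5 times 61. A close count did not mean the same genes. Of the 61, 33 passed with the 7 arrays of the lines alone and 48 with normexp correction. With quantile scaling 49 of them passed, and with the title number in place of the slide 56. The count was 38 when probes had to be well above background on all 7 arrays, which left 19381 genes to test, 93 with the slide as a random block, 156 with the title date as a covariate, 4 with undated arrays only, and 35 without the slide A arrays of both lines, an alternative chosen after seeing the data. With undated arrays 1188 genes had an unadjusted p under 0.05. The 4 that passed were 2 transcripts without a symbol, shared with the 61, and Rcc1l and Hspb7, named after their values were seen. Leaving out each array in turn gave 41 to 65 genes, and 35 passed every time. The share higher in B16-D-739, 23% of the 61, was 33.8% of 71 with normexp correction, 8.57% without slide A, and 9.76% to 41.5% leaving out each array. The causes were not tested.

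The median absolute difference between the lines, 0.102, was 0.083 with normexp correction, 0.0905 with the filter on all 7 arrays, and 0.1045 to 0.1418 leaving out each array. Genes well above background in 1 line and not in the other were 69 to 119 leaving out each array, where fewer arrays had to be dim. The interferon list's median ran from -0.55, with the title date as a covariate, to -0.16, and that of the pigment list from -0.25 to 0.02.

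No called gene changed sign under any alternative that gave it a value. The alternatives share arrays with the call, and 60 of the 61 had arrays of the lines apart. Kept directions, also those with undated arrays, are therefore a description. Of the 25 named genes that passed, 16 passed whichever array was left out. Gas6, Tvp23a and Tslp passed under every alternative that gave them a value, and 8 others lost the call under 1. Those 3 genes had no value in 2 settings, the filter on all 7 arrays and the undated arrays, where they were too dim to be tested. They were therefore never tested without the dated arrays. For Ctsk, Clu, Mbp, Flywch2, Sigirr and Tmem88, the setting that ended the call was that of the undated arrays. With undated arrays 0 of the 25 passed, and the 17 with a value kept their direction. None of the 9 melanoma markers passed in any setting, and 7 changed sign in at least 1. Signal near background limits the fold of dim genes to a bound.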
